A study of Homo sapiens with 6 samples.

Results

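The snoRNA host genes are genes, most of them for long noncoding RNAs, whose introns carry small nucleolar RNAs (snoRNAs). Every gene of the count table named SNHG followed by a number was taken, together with GAS5 and ZFAS1, which gave 30 of 60843 genes. Of the 30, 27 passed a filter on low counts and stood among the 16327 genes tested. RNA was sequenced from 6 libraries of a chemical protocol that, by the title of the series, reprograms BJ cells, an established line of human foreskin fibroblasts, into cells called FiNs. All 6 libraries were labelled WT and all were labelled as reprogramming. The 2 libraries of day 0 were labelled BJ fibroblasts, which are grown in DMEM with 10% fetal bovine serum. The 2 libraries of day 2 were labelled FiN and induced neuron cells, after induction medium with 10 µM forskolin, a plant diterpene that activates adenylyl cyclase. The 2 libraries of day 5 carried the same cell labels and came after a further medium, neuronal maturation medium with 10 µM forskolin, introduced at day 2. Time, medium, serum and drug changed together after day 0 and cannot be told apart.

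Most snoRNAs are cut out of introns after splicing. Box C/D snoRNAs, the SNORD genes, guide 2′-O-methylation of ribosomal RNA, and box H/ACA snoRNAs, the SNORA genes, guide its pseudouridylation. Small Cajal body RNAs (scaRNAs) guide the same marks on spliceosomal RNAs. The spliced host RNA that is left over is often exported, bound by ribosomes and destroyed by nonsense-mediated decay, so its level depends on transcription and on decay. Many host genes, like the genes for ribosomal proteins, begin with a terminal oligopyrimidine (TOP) tract, a C followed by pyrimidines at the start of the RNA, through which mTOR signalling controls translation.

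Libraries held 17605858 to 27953926 counts, and the day 5 libraries were the shallowest. Separate cultures are not named in the labels, so a p-value reflects how far the libraries of 1 day spread, and that spread may be technical only. The spread beyond sampling noise was small, with a coefficient of variation of 3.33% from 1 estimate over all genes. Single genes could spread more, such as SNHG17 with 11.1 and 7.64 CPM (counts scaled by library size and TMM factor) at day 5. Of all tested genes, 66.8 to 69.9% passed the test in each comparison. In bulk RNA, fewer cells of a type and less RNA per cell cannot be told apart. All 10 fibroblast markers passed the filter, with a summed level of 14534 to 14868 CPM at day 0, 11827 to 12071 at day 2 and 29073 to 29461 at day 5. They also parted, with 5 higher and 5 lower at day 5 than at day 0: COL1A2, COL3A1 and PDGFRA carried the rise of the sum, while S100A4, DCN and THY1 fell. Of 11 neuron markers 5 passed it, with summed levels of 252 to 260, 155 to 162 and 111 to 115 CPM on the 3 days, and STMN2, ELAVL4 and NEUROD1 were at 0 counts in all 6 libraries. Most of that sum was TUBB3, and the markers differed among themselves: SNAP25 had 16.8 and 19.7 CPM at day 5, against 5.75 and 6.01 at day 0, while MAP2 fell to 0.360 and 1.31 CPM at day 5, against 11.7 and 14.1 at day 0. Libraries are therefore called by their day and not by the neuron label. Lists for epithelial, glial, endothelial, immune and melanocyte cells summed to at most 0.600, 10.7, 64.8, 128 and 9.60 CPM. The endothelial sum, nearly all KDR, was 4.97 to 6.77 CPM at day 0, 8.61 to 9.44 at day 2 and 61.2 to 64.8 at day 5, and the immune sum, nearly all CD68, was 93.1 to 94.0, 128 and 45.2 to 49.3 CPM. The part of the cell makeup in the results below was not tested.

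The starts of 10 host genes are shown because a TOP tract is the best-known sequence feature of this family. Each line gives 40 bases, 20 on either side of the start that RefSeq annotates on GRCh38.p14, written 5′ to 3′ on the strand of the gene. Capitals mark a run of at least 6 C or T letters whose first letter is a C within 10 bases of the start. A marked run may reach past that distance, and further C or T letters may stand before it. Lines without capitals hold no such run. The first 6 genes, SNHG16 to ZFAS1, rose at day 2, SNHG8 rose too, SNHG12 and SNHG4 were lower at day 2 and day 5, and SNHG32 was lower at day 5.
SNHG16, chr17:76557744-76557783, plus strand: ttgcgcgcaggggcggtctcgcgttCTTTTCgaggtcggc
GAS5, chr1:173869026-173869065, minus strand: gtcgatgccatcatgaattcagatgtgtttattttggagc
SNHG18, chr5:9546180-9546219, plus strand: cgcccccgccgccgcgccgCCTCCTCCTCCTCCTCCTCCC
SNHG19, chr16:2155339-2155378, minus strand: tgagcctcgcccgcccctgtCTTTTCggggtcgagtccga
SNHG5, chr6:85678714-85678753, minus strand: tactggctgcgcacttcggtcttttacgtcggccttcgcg
ZFAS1, chr20:49278622-49278661, plus strand: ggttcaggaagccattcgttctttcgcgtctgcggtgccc
SNHG8, chr4:118278742-118278781, plus strand: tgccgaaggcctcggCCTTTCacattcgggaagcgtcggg
SNHG32, chr6:31834896-31834935, plus strand: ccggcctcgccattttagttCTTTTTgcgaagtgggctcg
SNHG12, chr1:28581854-28581893, minus strand: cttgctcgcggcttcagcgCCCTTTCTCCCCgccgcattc
SNHG4, chr5:139274081-139274120, plus strand: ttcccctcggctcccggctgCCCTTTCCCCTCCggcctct

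Of the 30 host genes, 26 had a promoter in the RefSeq table, which spans 250 bases before to 50 bases after a start. The run was present in 12 of the 26 (46.2%), against 20.8% of all 35116 promoters in the table. It began at the annotated start in SNHG19, SNHG32 and SNHG4, and 1 base before it in SNHG12 and SNHG18. In the others it began 3 to 10 bases away, so 46.2% is not the share with a TOP tract. SNHG5 and ZFAS1 hold a shorter run of C and T letters, which begins at the annotated start and misses the length set for the search. The RefSeq starts of SNHG14 and SNHG27 lie well outside these genes as GENCODE release 29 draws them. That of SNHG14 is off by the length of a whole neighbouring gene, SNRPN. The start of GAS5 lies outside its gene too, but close to it. Among tested members with a promoter, 7 of the 12 called higher at day 2 held the run, SNHG32 among them although no direction is given for it below. So did 3 of the 7 that were lower, SNHG14 among them, and 1 of the 5 that were not called. Members with and without the run thus occurred in both directions. These counts depend on the length set and on the annotated starts, and whether the run bears on direction was not tested. A second search, chosen after this result was seen, read the annotated ends of transcripts in GENCODE release 29. There, 39 of 288 transcripts of the host genes (13.5%) began with C and 4 pyrimidines, against 2.41% of 206694 transcripts in all, and transcripts of 1 gene often share a start. Of 29 GAS5 transcripts 6 did so. The palindromic cAMP response element TGACGTCA was in 0 of 26 promoters and in 1.85% of all. Its shorter form TGACG, searched on both strands and contained in the full element, was in 26.9% of the 26 and 24.6% of all. The E-box CACGTG, which reads the same on both strands, was in 7.69% and 7.26%. These are matches of letters in a window around an annotated start and say nothing of binding.

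Together the host genes made up 0.145% of the counts in both day 2 libraries, 0.102 and 0.100% in the day 5 libraries, and 0.0963 and 0.0964% in the day 0 libraries. Their level summed to 878 and 884 CPM in the libraries of day 0, to 1506 and 1510 CPM in those of day 2, and to 1077 and 1054 CPM in those of day 5. The 4 most abundant members in a library carried 58.5 to 64.8% of that sum, so the sum follows a few genes. Of the 27 tested members, 12 had their highest mean level at day 2, 12 at day 5 and 3 at day 0.

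**Figure D1:**
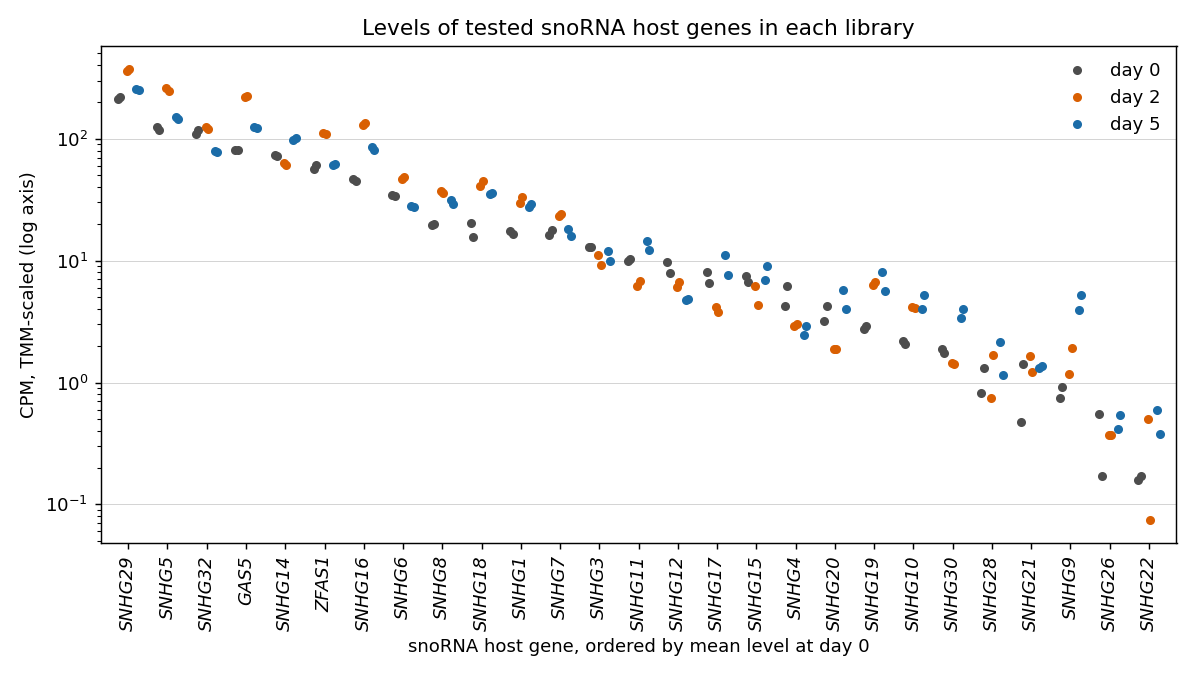
Level of each of the 27 tested snoRNA host genes in each library, as TMM-scaled CPM on a log axis. Each dot is 1 library, with days 0, 2 and 5 from left to right within a gene, and genes run from the highest to the lowest mean at day 0. Several abundant genes on the left, such as GAS5 and SNHG16, have their day 2 dots on top. SNHG14, also on the left, and SNHG11, SNHG17 and SNHG20 have their day 2 dots at the bottom.

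At day 2 several abundant host genes, among them SNHG29, SNHG5, GAS5, ZFAS1 and SNHG16, were higher than at day 0. SNHG16 and GAS5 moved most, 2.90-fold and 2.76-fold, and SNHG5, SNHG18 and SNHG19 also more than doubled by the fitted fold. Of the 27 tested members, 14 were higher (51.9%) and 8 lower (29.6%), while among all tested genes 33.4% were higher and 33.4% lower. The median log2 fold change of the 27 was 0.48 and that of all 16327 genes 0.00. A scaling by library totals alone shifted the median of all genes by -0.18 and put the members' median at 0.29. Against a 1.5-fold threshold (edgeR's glmTreat), 9 members were higher and 0 lower, with 15.3 and 12.9% of all genes past it in these directions, and 2 members were lower at an unadjusted p under 0.05. These counts are a description, since the members were chosen with earlier results known and members of low count reach the test only where enough libraries hold counts.

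GAS5, named for its build-up in growth-arrested cells, encodes a noncoding RNA that can bind the glucocorticoid receptor (GRCh38 chr1:173863900-173868882, minus strand). It had 222 and 223 CPM in the day 2 libraries, against 81.2 and 80.1 CPM at day 0. Its libraries lay far apart between the days and nearly on top of each other within a day. The log2 fold change was 1.46 ± 0.03 (SE; edgeR adjusted p = 3.26e-16). SNHG16 (chr17:76557766-76565348, plus strand), which hosts the SNORD1 family, had 130 and 135 CPM at day 2, against 46.9 and 44.6 CPM at day 0. Its log2 fold change was 1.54 ± 0.05 (edgeR adjusted p = 9.77e-15). The days did not overlap for either gene, and both genes kept direction and call under every setting tried.

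SNHG29 (chr17:16438822-16478678, plus strand), listed as LRRC75A-AS1 in GENCODE release 29, was the most abundant member in CPM on each day and hosts SNORD49A, SNORD49B and SNORD65. It had 361 and 376 CPM at day 2, against 212 and 219 at day 0 (0.78 ± 0.03 on the log2 scale, edgeR adjusted p = 2.53e-13). SNHG5 (chr6:85660950-85678748, minus strand), host of SNORD50A and SNORD50B, had 260 and 245 CPM at day 2, against 125 and 118 at day 0 (1.05 ± 0.04, edgeR adjusted p = 1.11e-13). Both genes were thus well separated by day, SNHG5 by the larger step. ZFAS1, the antisense neighbour of ZNFX1 and host of 3 snoRNAs of the SNORD12 family (chr20:49278178-49295738, plus strand), had 111 and 109 CPM at day 2, against 55.9 and 61.0 at day 0 (0.91 ± 0.05, edgeR adjusted p = 2.08e-11). SNHG6, host of SNORD87, had 46.6 and 48.6 CPM at day 2, against 34.4 and 34.0 at day 0 (0.48 ± 0.06, edgeR adjusted p = 1.48e-06). In both, the lower day 2 library stood above the higher day 0 library.

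Among members of middle level, SNHG18 had 41.3 and 45.3 CPM at day 2, against 20.3 and 15.6 at day 0 (1.28 ± 0.09 on the log2 scale, edgeR adjusted p = 1.88e-09). SNHG8, host of SNORA24, had 37.2 and 35.6 CPM at day 2, against 19.67 and 20.02 at day 0 (0.87 ± 0.07, edgeR adjusted p = 1.05e-08). SNHG1, a host of 8 box C/D snoRNAs, had 29.8 and 33.1 CPM at day 2, against 17.5 and 16.6 at day 0 (0.89 ± 0.08, edgeR adjusted p = 3.59e-08). All 3 genes therefore stood clear of their day 0 values, though the replicates of SNHG18 were more spread than those of GAS5. SNHG7 had 23.0 and 24.2 CPM at day 2, against 16.1 and 17.9 at day 0 (0.47 ± 0.09, edgeR adjusted p = 0.000208). Of the rarer genes, SNHG19 had 6.33 and 6.65 CPM at day 2, against 2.76 and 2.92 at day 0 (1.19 ± 0.19, edgeR adjusted p = 3.15e-05). SNHG10, host of SCARNA13, had 4.20 and 4.05 CPM at day 2, against 2.21 and 2.06 at day 0 (0.95 ± 0.21, edgeR adjusted p = 0.000845). Rare and abundant members alike were thus found on the rising side.

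Another 2 of the 14 rested on thinner ground. SNHG32, listed as C6orf48 in GENCODE release 29, had 125 and 121 CPM at day 2, against 110 and 119 at day 0. The log2 fold change was 0.10 ± 0.04 (edgeR adjusted p = 0.0397), its adjusted p was 0.370 without day 0 replicate 1 and 0.224 without day 2 replicate 1, and library totals alone gave -0.08, so no direction is given for it. SNHG9 (chr16:1964959-1965509, plus strand), host of SNORA78, had 1.17 and 1.93 CPM at day 2, against 0.749 and 0.927 at day 0 (0.89 ± 0.35, edgeR adjusted p = 0.0342). Without day 0 replicate 1, day 0 replicate 2 or day 2 replicate 2 the adjusted p of SNHG9 was 0.142, 0.0605 and 0.359, with a log2 fold change of 0.47 in the last case.

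Of the 8 members that fell at day 2, SNHG14 was the most abundant. SNHG14 (chr15:24978583-25419462, plus strand), the long imprinted transcript of the Prader-Willi locus that carries the SNORD115 and SNORD116 clusters, had 63.5 and 61.0 CPM at day 2, against 73.6 and 72.1 at day 0. This small step (-0.23 ± 0.05 on the log2 scale, edgeR adjusted p = 0.000298) was larger than the spread within either day. SNHG11, host of SNORA60 and SNORA71E, had 6.20 and 6.77 CPM at day 2, against 9.89 and 10.3 at day 0 (-0.64 ± 0.13, edgeR adjusted p = 0.000422). Its neighbour on chromosome 20, SNHG17, had 4.16 and 3.79 CPM at day 2, against 8.12 and 6.52 at day 0 (-0.88 ± 0.19, edgeR adjusted p = 0.00057). SNHG20, host of SCARNA16, had 1.87 and 1.90 CPM at day 2, against 3.19 and 4.22 at day 0 (-0.98 ± 0.24, edgeR adjusted p = 0.00188). All 4 genes were below day 0 in both day 2 libraries, and their calls held without any 1 library.

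For another 4 the call depended on single libraries. SNHG3, which hosts SNORA73A and SNORA73B, had 11.03 and 9.18 CPM at day 2, against 13.0 in both day 0 libraries (-0.37 ± 0.12 on the log2 scale, edgeR adjusted p = 0.0144). Its adjusted p was 0.0583, 0.0634 and 0.171 without day 0 replicate 1, day 0 replicate 2 and day 2 replicate 2, where the change was -0.24. SNHG12 had 6.12 and 6.69 CPM at day 2, against 9.74 and 7.90 at day 0 (-0.46 ± 0.15, edgeR adjusted p = 0.012). Both genes were lower in each day 2 library, by steps close to the spread between replicates. Without day 0 replicate 1 the change of SNHG12 was -0.30 (adjusted p = 0.154), and without day 2 replicate 1 its adjusted p was 0.0784. SNHG15, host of SNORA9, had 6.16 and 4.31 CPM at day 2, against 7.49 and 6.73 at day 0 (-0.45 ± 0.18, edgeR adjusted p = 0.0408). Its change was -0.20 without day 2 replicate 2 (adjusted p = 0.400), and its adjusted p was 0.191 and 0.0698 without day 0 replicates 1 and 2. SNHG4, host of SNORA74A and SNORA74D, had 2.91 and 3.01 CPM at day 2, against 4.22 and 6.18 at day 0 (-0.82 ± 0.22, edgeR adjusted p = 0.00308), and without day 0 replicate 2 its change was -0.51 (adjusted p = 0.0996). Without day 0 replicate 1 or day 0 replicate 2, the count of 8 lower members was 5.

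**Figure D2:**
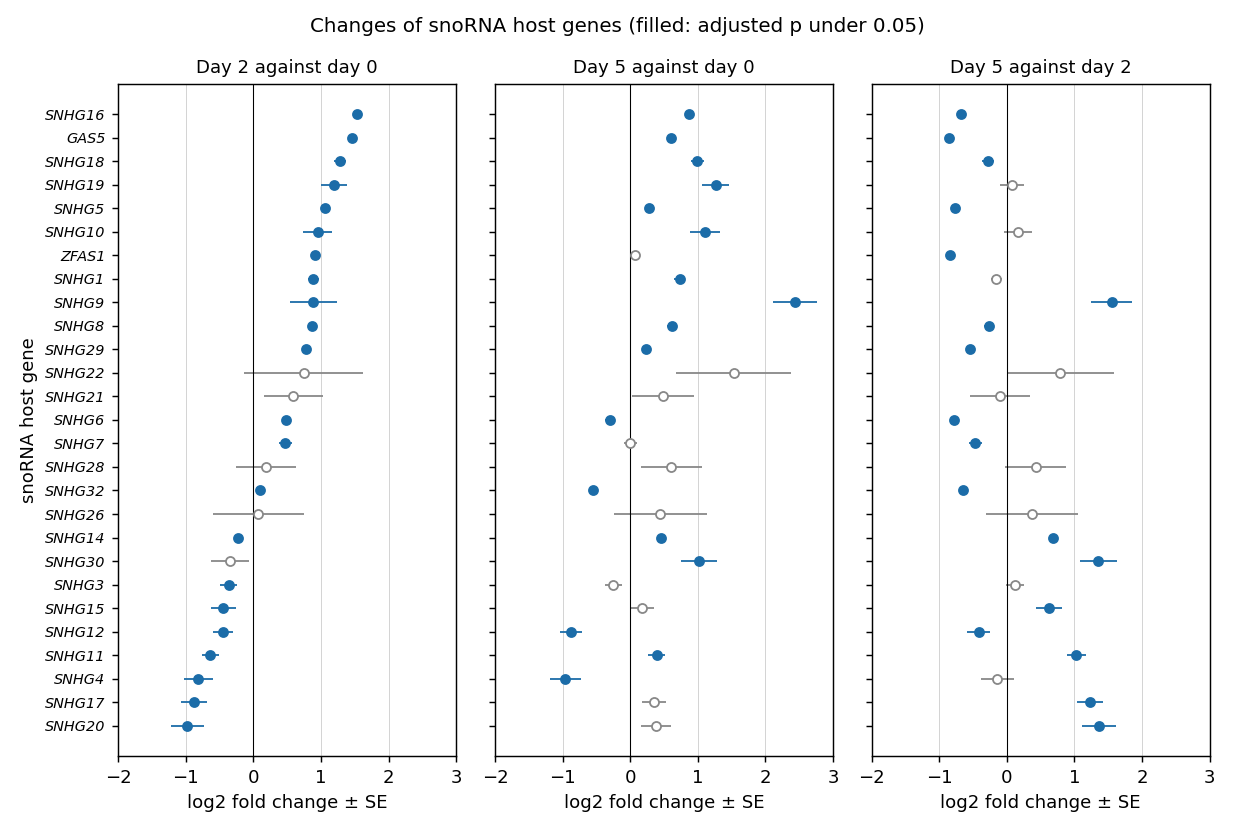
Log2 fold change ± SE of the 27 tested snoRNA host genes in 3 comparisons, with genes ordered by their change at day 2 and filled symbols for an edgeR adjusted p under 0.05. SNHG16 and GAS5 stand at the top of the left panel with 1.54 and 1.46, SNHG20, SNHG17 and SNHG4 stand at its bottom, and SNHG9 lies farthest right in the middle panel with 2.44.

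At day 5, 13 of the 27 tested members were higher than at day 0 (48.1%) and 4 were lower (14.8%), against 35.8 and 34.1% of all tested genes. This comparison shares the day 0 libraries with the one at day 2, so agreement between their calls is not independent evidence. The members' median log2 fold change was 0.44, with 0.04 over all genes. Library totals alone shifted the median of all genes by -0.21 and gave a members' median of 0.24, with 10 members higher and 6 lower. Past a 1.5-fold threshold 6 members were higher and 1 lower (edgeR glmTreat), among 17.9 and 17.4% of all genes.

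The largest rise belonged to SNHG9. It had 3.96 and 5.18 CPM in the day 5 libraries, against 0.749 and 0.927 CPM at day 0, a 5.41-fold difference (2.44 ± 0.33 on the log2 scale, edgeR adjusted p = 4.27e-06). These levels rest on few reads, with 66 and 95 counts at day 5 and 19 and 27 at day 0. The lower day 5 library was several times the higher day 0 library, and the call held under every setting tried. SNHG19 had 8.03 and 5.67 CPM at day 5, against 2.76 and 2.92 at day 0 (1.26 ± 0.20, edgeR adjusted p = 2.15e-05). SNHG10 had 4.02 and 5.18 CPM at day 5, against 2.21 and 2.06 at day 0 (1.11 ± 0.22, edgeR adjusted p = 0.000246). SNHG30, host of SNORD7 and listed as LINC02001 in GENCODE release 29, had 3.36 and 3.98 CPM at day 5, against 1.89 and 1.75 at day 0 (1.01 ± 0.27, edgeR adjusted p = 0.00289). At day 2 it had 1.46 and 1.41 CPM and did not pass the test (-0.34, edgeR adjusted p = 0.299). These 3 genes were low throughout, yet no day 5 library of theirs fell within the day 0 range.

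SNHG18 had 35.1 and 36.1 CPM at day 5, against 20.3 and 15.6 at day 0 (1.00 ± 0.10 on the log2 scale, edgeR adjusted p = 1.01e-07). SNHG16 had 85.4 and 81.2 CPM at day 5, against 46.9 and 44.6 at day 0 (0.87 ± 0.05, edgeR adjusted p = 6.4e-11). GAS5 had 124 and 122 CPM at day 5, against 81.2 and 80.1 at day 0 (0.61 ± 0.04, edgeR adjusted p = 1.38e-10). In each of these the day 5 libraries stood above day 0, and the same held for SNHG1 (0.73), SNHG8 (0.62) and SNHG14 (0.46). SNHG14 had 98.4 and 102 CPM at day 5, against 73.6 and 72.1 at day 0. SNHG29 and SNHG5 were higher by 0.24 and 0.28 on the log2 scale, but with library totals alone their changes were 0.03 and 0.08 and their adjusted p 0.363 and 0.103. SNHG11 had 14.4 and 12.1 CPM at day 5, against 9.89 and 10.3 at day 0 (0.39 ± 0.13, edgeR adjusted p = 0.0111). The call for SNHG11 was lost without day 0 replicate 1 (adjusted p = 0.0581) and without day 5 replicate 1, where the change was 0.26 (adjusted p = 0.130). It was also lost with library totals alone (0.19, adjusted p = 0.196) and with DESeq2 (adjusted p = 0.0503).

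The 4 members that fell at day 5 were SNHG32, SNHG6, SNHG12 and SNHG4. SNHG32 had 78.7 and 78.5 CPM at day 5, against 110 and 119 at day 0 (-0.54 ± 0.05 on the log2 scale, edgeR adjusted p = 1.25e-08). SNHG6 had 27.99 and 27.55 CPM at day 5, against 34.4 and 34.0 at day 0 (-0.30 ± 0.07, edgeR adjusted p = 0.000701). SNHG12 had 4.79 and 4.80 CPM at day 5, against 9.74 and 7.90 at day 0 (-0.87 ± 0.16, edgeR adjusted p = 0.000131), and was the 1 member lower past the 1.5-fold threshold. SNHG4 had 2.46 and 2.89 CPM at day 5, against 4.22 and 6.18 at day 0 (-0.96 ± 0.23, edgeR adjusted p = 0.00138). For all 4 genes the days did not overlap.

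Several members stood near their day 0 level at day 5. ZFAS1 had 60.8 and 62.0 CPM at day 5, against 55.9 and 61.0 at day 0, so the days overlapped (0.07 ± 0.05 on the log2 scale, edgeR adjusted p = 0.255). With library totals alone its change was -0.14 (adjusted p = 0.0280), and no direction is given for it. SNHG7 had 18.16 and 16.04 CPM at day 5, against 16.08 and 17.89 at day 0 (0.00 ± 0.10, edgeR adjusted p = 0.97). SNHG15, SNHG17 and SNHG20 also overlapped between these days, with log2 fold changes of 0.18, 0.35 and 0.38 that did not pass the test. Without day 5 replicate 2, SNHG17 (0.60, adjusted p = 0.00955) and SNHG20 (0.61, adjusted p = 0.0482) passed it. SNHG3 stood at 12.0 and 9.98 CPM (-0.25, edgeR adjusted p = 0.0953), and passed without day 5 replicate 1 (-0.38, adjusted p = 0.0383).

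Between day 2 and day 5, when the medium was changed again, 7 tested members were higher (25.9%) and 11 lower (40.7%), against 32.1 and 33.7% of all tested genes and 65.8% in either direction. The median log2 fold change was -0.10 for the members and 0.01 for all genes. Past a 1.5-fold threshold 6 members were higher and 5 lower (edgeR glmTreat), among 13.3 and 15.6% of all genes. This comparison uses the day 2 and day 5 libraries of the others, so its values follow from levels already given. The 5 members lower past the threshold were GAS5 (log2 fold change -0.86 ± 0.03), ZFAS1 (-0.84 ± 0.05), SNHG6 (-0.78 ± 0.06), SNHG5 (-0.77 ± 0.04) and SNHG16 (-0.67 ± 0.05). SNHG32 (-0.65), SNHG29 (-0.54) and SNHG7 (-0.47) also fell.

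The other 3 lower calls were small and moved with single libraries. SNHG18 changed by -0.28 (edgeR adjusted p = 0.0109), with an adjusted p of 0.110 without day 2 replicate 2 and 0.0583 without day 5 replicate 1. SNHG8 changed by -0.26 (edgeR adjusted p = 0.00494), with 0.0639 without day 5 replicate 2. SNHG12 changed by -0.42 (edgeR adjusted p = 0.037), with 0.0513 to 0.163 after dropping each of the 4 libraries in turn. SNHG1 did not pass (-0.15, edgeR adjusted p = 0.102), but did without day 2 replicate 1 (-0.22, adjusted p = 0.0496). For these 4 genes both day 5 libraries lay below both day 2 libraries, but the calls changed with the library left out.

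The 7 members that rose between day 2 and day 5 were SNHG9, SNHG11, SNHG14, SNHG15, SNHG17, SNHG20 and SNHG30. SNHG11 had 14.4 and 12.1 CPM at day 5, against 6.20 and 6.77 at day 2 (1.03 ± 0.13 on the log2 scale, edgeR adjusted p = 3.3e-06). SNHG17 had 11.1 and 7.64 CPM at day 5, against 4.16 and 3.79 at day 2 (1.23 ± 0.19, edgeR adjusted p = 2.51e-05). SNHG20 had 5.69 and 4.04 CPM at day 5, against 1.87 and 1.90 at day 2 (1.36 ± 0.25, edgeR adjusted p = 0.000122). All 3 genes had wider replicates at day 5 than at day 2, and the days stayed apart. SNHG9 (1.55 ± 0.31), SNHG30 (1.35 ± 0.28) and SNHG14 (0.69 ± 0.05) also passed the 1.5-fold threshold. SNHG15 rose by 0.62 (edgeR adjusted p = 0.00825), with 0.38 and an adjusted p of 0.125 without day 2 replicate 2, and 0.40 and 0.136 without day 5 replicate 2. SNHG3, SNHG10 and SNHG19 did not pass the test (0.12, 0.16 and 0.07), and their days overlapped.

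Levels of different genes were compared per kilobase, where the result depends on which length is used. At day 0, by the length in the authors' table, SNHG32 had 109 CPM per kilobase, SNHG29 65.0, SNHG6 52.7, GAS5 25.7, SNHG5 21.1 and ZFAS1 12.9. By the merged exon length of GENCODE release 29, SNHG32 had 63.6 CPM per kilobase, SNHG29 57.2, SNHG5 43.3, SNHG6 27.4, ZFAS1 26.1 and GAS5 22.2. SNHG32 and SNHG29 led on both lengths, while the order of the other 4 genes changed with the length. SNHG14, which is among the more abundant members in CPM, had only 3.02 and 1.68 CPM per kilobase by these lengths.

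When members were grouped by the snoRNAs that RefSeq places inside them, the box C/D hosts and the box H/ACA hosts differed in their counts at day 2. The grouping was made after the values were seen and used positions without strand, so it is a description with no test. Of the 12 members with box C/D snoRNAs alone, all tested, 9 were called higher at day 2, SNHG32 among them although no direction is given for it, and 1, SNHG14, was lower, with a median log2 fold change of 0.83. Of the 8 tested members with box H/ACA snoRNAs alone, 3 were higher (SNHG7, SNHG8 and SNHG9) and 5 lower (SNHG3, SNHG4, SNHG11, SNHG15 and SNHG17), with a median of -0.41. Among all tested genes 33.4% moved each way. The 5 lower calls became 3, 2 and 3 without day 0 replicate 1, day 0 replicate 2 and day 2 replicate 2. Past the 1.5-fold threshold 1 box H/ACA host was higher, and of the 5 lower hosts none passed (edgeR glmTreat). The box C/D hosts also hold the most abundant members, and level and class were not separated. GAS5, with 10 SNORD genes and SNORA103, and SNHG12, with 1 SNORD and 3 SNORA genes, were kept as mixed hosts, and they moved in opposite directions (1.46 and -0.46). The scaRNA hosts SNHG10 and SNHG20 also parted, with 0.95 and -0.98.

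At day 5 the box C/D hosts had 8 higher and 2 lower calls (median 0.45), and the box H/ACA hosts 3 higher and 1 lower (median 0.26), where 35.8% of all tested genes were higher and 34.1% lower. The 1 lower box H/ACA call became 2 with library totals alone and without day 5 replicate 1. Between day 2 and day 5, 2 box C/D hosts were higher and 7 lower (median -0.41), and 4 box H/ACA hosts were higher and 2 lower (median 0.37), beside 32.1 and 33.7% of all genes. Without day 5 replicate 2, 1 box H/ACA host was lower. The snoRNAs themselves were not measured by these libraries. Of 540 rows for single snoRNA and scaRNA genes, 39 held any count, 0 passed the filter, and they summed to 14 to 40 counts per library.

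**Figure D3:**
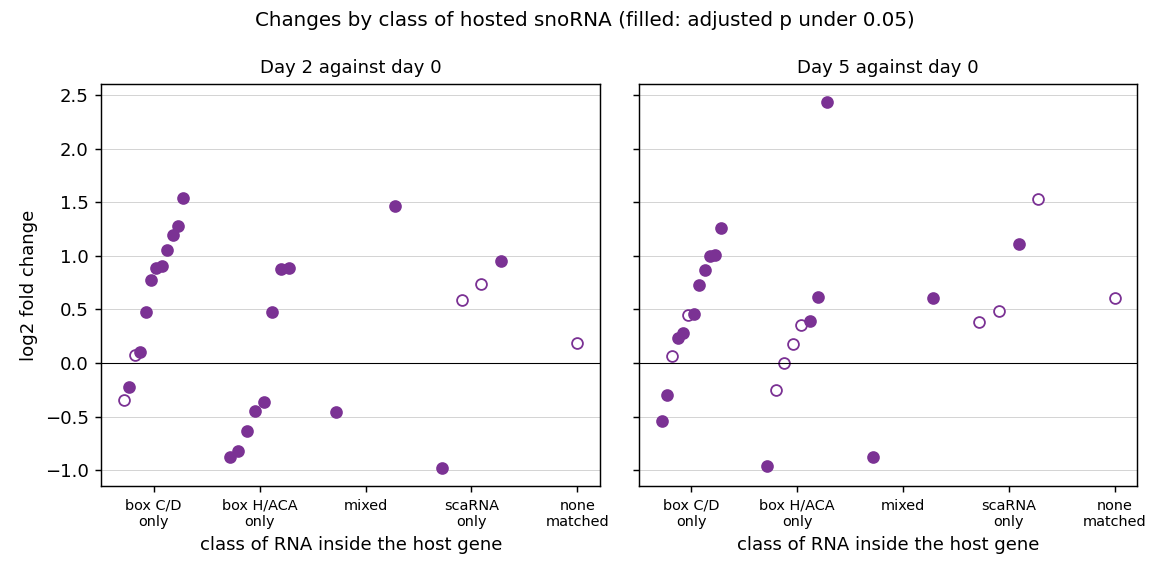
Log2 fold change of each tested snoRNA host gene by the class of RNA that lies within it, at day 2 and day 5 against day 0, with filled symbols for an edgeR adjusted p under 0.05. On the left, 9 of 12 box C/D hosts are filled above 0, while 5 of 8 box H/ACA hosts are filled below 0, and on the right most symbols of both classes lie above 0.

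Many host genes lie across other genes, and the strand setting of the counting was not given in the sources used here, so reads from shared exons cannot be assigned with certainty. Shared exon bases are those of GENCODE release 29 and may not describe the gene models that were counted. The authors' table gives ZFAS1 a length of 4526 bases, against 2243 exon bases by GENCODE, and SNHG8 6165 against 923. ZFAS1 and ZNFX1, a gene for a helicase-like zinc finger protein on the opposite strand, share 249 exon bases, 11.1% of the exon bases of ZFAS1. ZNFX1 had 93.8 and 98.0 CPM at day 2, against 282 and 285 at day 0 (-1.56 ± 0.03 on the log2 scale, edgeR adjusted p = 1.47e-16), while ZFAS1 rose by 0.91. SNHG7 shares 1094 exon bases (25.2% of its own) with DIPK1B on the opposite strand, which fell by 1.53 on the log2 scale (SE 0.15) while SNHG7 rose by 0.47. In both pairs the partners thus moved in opposite directions at day 2. Other pairs did not all part. SNHG20 and SEC14L1 share 460 exon bases on the same strand and changed by -0.98 and -0.43. SNHG10 and GLRX5 share 391 on opposite strands and changed by 0.95 and 0.39. SNHG12 and TRNAU1AP share 8 and changed by -0.46 and -0.76, while SNHG4 and MATR3 share 626 and changed by -0.82 and 0.20. SEC14L1 and GLRX5 had day 2 means of 86.6 and 58.9 CPM, against 1.88 for SNHG20 and 4.13 for SNHG10.

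SNHG14 reaches over UBE3A, the ubiquitin ligase gene lost in Angelman syndrome, on the opposite strand. In neurons the SNHG14 transcript silences UBE3A on the paternal chromosome. UBE3A had 51.2 and 50.6 CPM at day 2, against 36.2 and 34.1 at day 0 (0.53 ± 0.06 on the log2 scale, edgeR adjusted p = 2.1e-07), and at day 5 both genes stood above day 0, SNHG14 by 0.46 and UBE3A by 0.48. SNRPN, which ends on the same strand within the first bases of SNHG14, with 141 shared exon bases, changed by -0.40 at day 2 and by -0.51 at day 5. GAS5 and ZBTB37, which share no exon bases, both rose at day 2, by 1.46 and 1.26. SNHG3 and RCC1, which share 242 exon bases on the same strand, changed by -0.37 and 0.45. By GENCODE release 29, SNHG28 (2242 exon bases) lies wholly within the exons of another gene on its strand, AL590560.2. The authors' table gives SNHG28 a length of 4930 bases, so how reads were divided between these 2 genes is not known. Their rows differed at day 2, with changes of 0.19 for SNHG28 and 1.97 for AL590560.2.

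**Figure D4:**
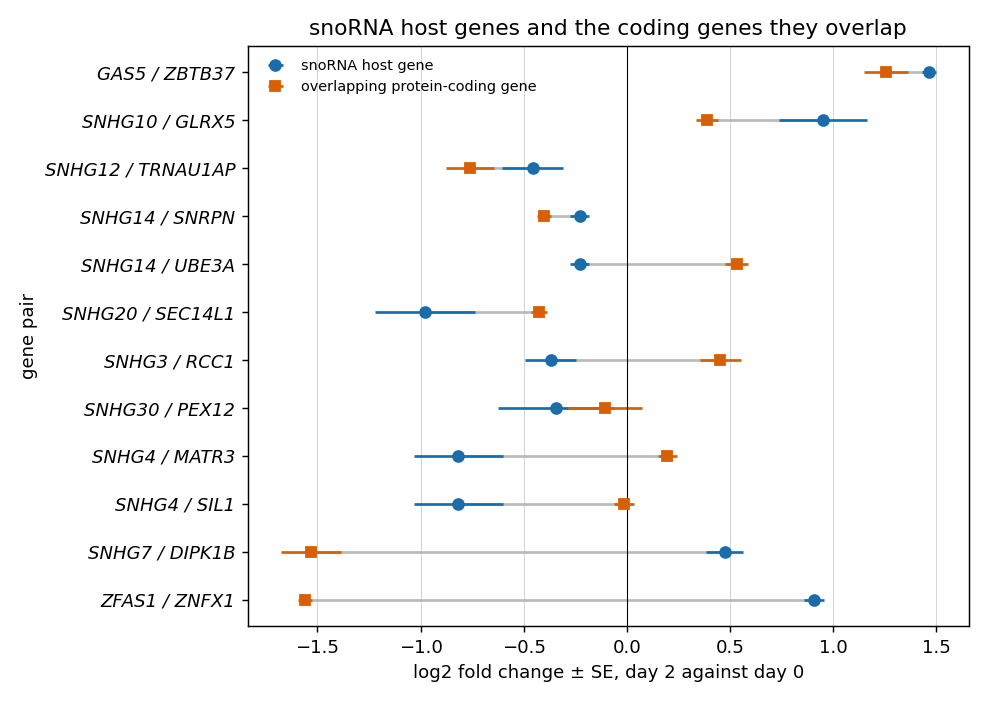
Log2 fold change ± SE at day 2 against day 0 for snoRNA host genes (circles) and for named protein-coding genes that overlap them (squares), 1 pair per line. The bottom pairs, ZFAS1 with ZNFX1 and SNHG7 with DIPK1B, lie on opposite sides of 0, while GAS5 and ZBTB37 both lie above 1 on this scale.

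Gene lists related to ribosomes and snoRNAs were set beside the host genes, as counts without a test of the list. The counts stand beside 33.4% higher and 33.4% lower among all tested genes at day 2, and 35.8 and 34.1% at day 5. All 79 tested genes for cytosolic ribosomal proteins were higher at day 2 (median log2 fold change 0.70), and at day 5 72 were higher and 2 lower (median 0.48). With library totals alone the 2 lower became 10. RPL36A had 157 and 153 CPM at day 2, against 65.2 and 62.7 at day 0 (1.28 ± 0.04, edgeR adjusted p = 1.54e-14). Of 31 tested protein-coding genes that host snoRNAs, 17 of which are on the ribosomal list too, 24 were higher and 5 lower at day 2 (median 0.68), and 22 and 5 at day 5 (median 0.45). The 5 lower at day 2 became 3 without day 2 replicate 2, and the 5 lower at day 5 became 9 with library totals alone. RPL3 had 1949 and 1988 CPM at day 2, against 1002 and 999 at day 0 (0.98 ± 0.02). HSPA8, a chaperone gene and a box C/D host, went the other way, with 880 and 893 CPM at day 2, against 1822 and 1845 at day 0 (-1.05 ± 0.02, edgeR adjusted p = 6.23e-18). The 27 host genes and this coding list thus had medians of 0.44 and 0.45 at day 5.

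Of 14 tested translation factors with a known TOP start, 14 were higher at day 2 (median 0.84) and 13 at day 5 (median 0.45). EEF2, the translocation factor of elongation, was higher by 0.94 ± 0.01 at day 2. Of 20 tested genes of the snoRNP particles and their assembly, 12 were lower at day 2 (median -0.28), and 2 were higher and 13 lower at day 5 (median -0.31). With library totals alone 18 of the 20 were lower at day 2. GAR1, a core protein of box H/ACA particles, had 5.04 and 4.98 CPM at day 2, against 11.9 and 10.6 at day 0 (-1.17 ± 0.14, edgeR adjusted p = 1.55e-06), and NUFIP1, an assembly factor, changed by -1.31 ± 0.15. The medians of the host genes and of the genes for proteins that package snoRNAs thus stood on different sides of 0 at day 2.

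Of 36 tested genes for RNA polymerase I and ribosome biogenesis, 8 were higher and 25 lower at day 2 (median -0.45), and 5 and 21 at day 5 (median -0.23). The 5 higher became 3 without day 0 replicate 2, without day 5 replicate 2 or with DESeq2, and 2 with library totals alone. BOP1, a ribosomal RNA processing factor, had 14.4 and 14.9 CPM at day 2, against 41.0 and 45.7 at day 0 (-1.56 ± 0.08, edgeR adjusted p = 1.66e-11). Of 17 genes of nonsense-mediated decay and the exon junction complex, the machinery that destroys many host RNAs, 5 were higher and 9 lower at day 2 (median -0.17), and 7 and 8 at day 5 (median -0.05). SMG8, a regulator of the SMG1 kinase, changed by -0.94 ± 0.07 at day 2, while SMG6, the endonuclease of the pathway, had 155 and 159 CPM at day 5, against 80.9 and 78.5 at day 0 (0.98 ± 0.04, edgeR adjusted p = 5e-13). Higher and lower genes thus both occurred on the decay list. Whether any of these lists bears on the host genes was not tested.

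**Figure D5:**
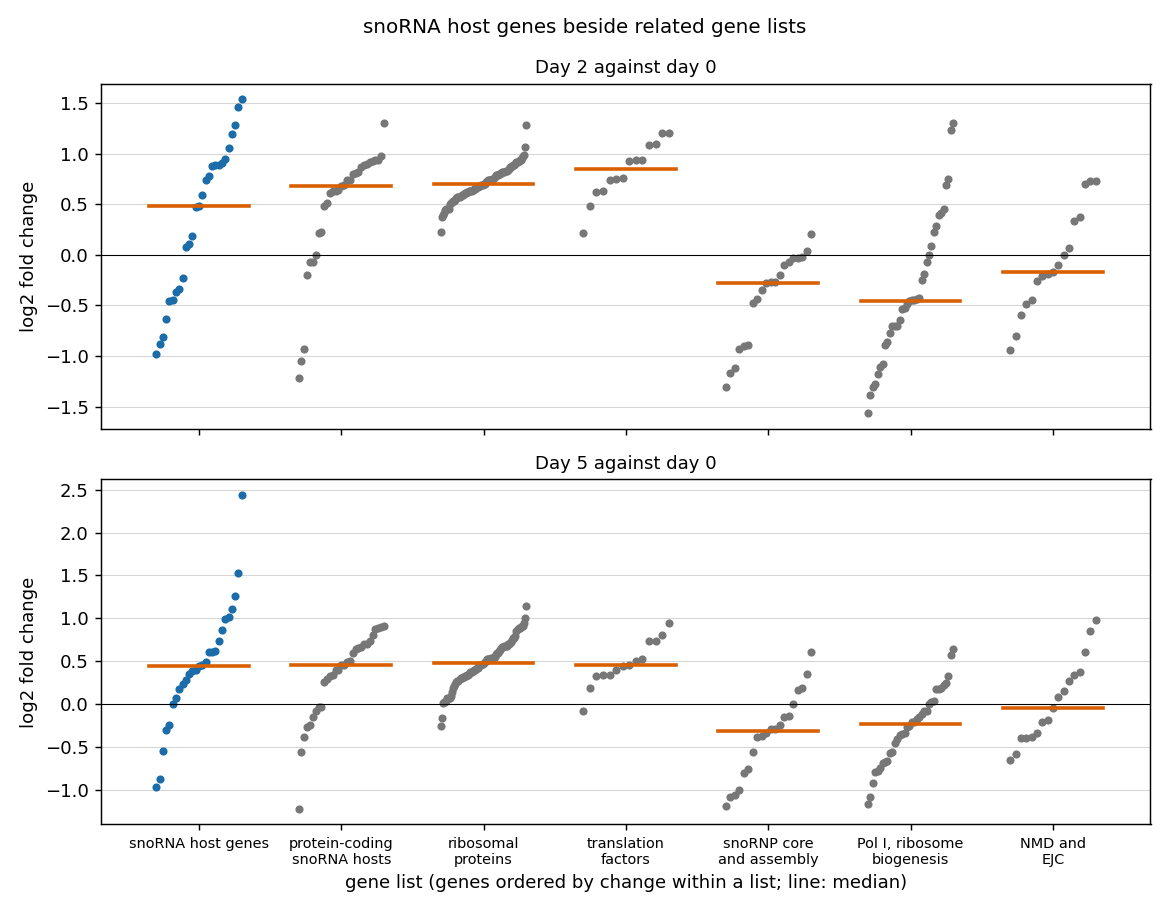
Log2 fold change at day 2 (top) and day 5 (bottom) against day 0 of every tested gene of 7 lists, with genes ordered by their change within a list and the list median as a line. The host genes on the left spread on both sides of 0 with medians of 0.48 and 0.44, the ribosomal proteins lie above 0 at day 2, and the snoRNP list lies mostly below 0.

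The remaining 7 members had low counts and no call. SNHG28 had 21 and 38 counts in the libraries of day 0, 18 and 45 in those of day 2 and 36 and 21 in those of day 5. SNHG21 had 12 and 41, 40 and 33, and 22 and 25 counts on these days. SNHG26 had 5 to 14 counts per library and SNHG22 2 to 12. These 4 were tested, passed no comparison and, apart from SNHG22 at day 5 over day 0 and SNHG26 at day 5 over day 2, overlapped between days. Their standard errors were wide. At day 2 against day 0 the log2 fold changes were 0.19 ± 0.45 for SNHG28, 0.59 ± 0.44 for SNHG21, 0.07 ± 0.67 for SNHG26 and 0.74 ± 0.87 for SNHG22. At day 5 against day 0 they were 0.61 ± 0.45, 0.49 ± 0.46, 0.44 ± 0.69 and 1.53 ± 0.85 in the same order. A library's 3 counts correspond to 0.103 to 0.180 CPM. SNHG31 (0 to 9 counts per library), SNHG25 (1 to 6) and SNHG27 (0 to 2) did not pass the filter.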

How the data were processed

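Total RNA behind the 6 libraries, 2 each of day 0, day 2 and day 5, was TRIzol-extracted, cleared of DNA with DNase I and prepared with a TruSeq RNA kit, per the labels' protocols. The authors deposited 1 table of expected counts per gene, estimates that need not be whole, unscaled between libraries per the file headers and the values. It also gives a gene length and a mean per day, and the means were not used. GRCh38 is the build named, per the submitters' processing notes. Aligner, counter, annotation and strand setting are not given in the sources used here. How they treat shared exons and multiply mapped reads decides the values of overlapping genes.

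Values that were not whole (all but 87.2%) were rounded. The 172 genes without a name, with 0.0356 to 0.0475% of a library's counts, were left out of totals and tests. Groups came from the titles in the labels. All 6 libraries entered 1 fit in edgeR 4.0.16, run in R 4.3.3, after TMM scaling and filterByExpr (minimum count 10, minimum total 15). The quasi-likelihood test had 3 residual degrees of freedom. P-values were two-sided and adjusted by the Benjamini-Hochberg method over 16327 genes, with calls at an adjusted p under 0.05. A standard error is the log2 fold change divided by the square root of F. glmTreat tested changes above 1.5-fold. The steps were tested on simulated data. Libraries of a day differed beyond sampling noise, with a chi-square per degree of freedom of 2.29 to 2.42.

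Members and lists were chosen with earlier results of these data known. Every member is accounted for, overlapping genes are named with their member, and up to 3 called genes of a list with the largest change at day 5 may be named. Other settings were DESeq2 1.42.0, RLE size factors, library totals, no filter, a stricter filter (4 or more libraries with a CPM of 1 or more), fits of the 2 days compared, glmTreat, a block by replicate number, and dropping each library in turn. Gene coordinates and exons came from GENCODE release 29 (GRCh38). Promoters and snoRNA positions came from RefSeq (GRCh38.p14).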

Additional observations from a re-analysis of the deposited data

How the results depend on the processing

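Of 759 results of the 23 members called at least once, recomputed under other settings, 700 kept their direction and call, 39 lost a call, 5 gained one and 15 changed sign. With glmTreat at 1.5-fold, the members higher and lower were 9 and 0 at day 2, 6 and 1 at day 5, and 6 and 5 between day 2 and day 5, since a larger change was asked for. Library totals alone gave medians of 0.29 at day 2 and 0.24 at day 5, with 12 higher and 8 lower members at day 2 and 10 and 6 at day 5. Leaving out 1 library gave 12 to 14 higher and 5 to 7 lower members at day 2, 12 to 15 and 4 to 5 at day 5, and 6 to 7 and 9 to 11 between day 2 and day 5. Signs changed for results near 0. With library totals alone these were SNHG32 at day 2 (-0.081), and ZFAS1 (-0.14), SNHG15 (-0.029) and SNHG7 (-0.20) at day 5. SNHG7 at day 5 was also -0.027 with DESeq2, -0.028 with RLE factors, -0.045 without a filter and -0.021 in a fit of the 2 days. Leaving out 1 library gave -0.084 to 0.091 for SNHG7 and -0.045 to 0.36 for SNHG15 at day 5, and, between day 2 and day 5, -0.012 to 0.26 for SNHG3, -0.041 to 0.33 for SNHG10 and -0.19 to 0.30 for SNHG19. Some calls were lost under settings other than dropping a library. SNHG32 at day 2 had an adjusted p of 0.132 with DESeq2, 0.0784 with RLE factors and 0.0695 without a filter. SNHG9 at day 2 had 0.0655 with DESeq2, 0.0865 with library totals and 0.0511 in a fit of the 2 days. SNHG15 at day 2 had 0.0710 with DESeq2. SNHG12 between day 2 and day 5 had 0.0848 with DESeq2 and 0.0503 with the stricter filter. The cause was not tested. No shared effect of the replicate number was seen, as deviations of libraries with the same number correlated at 0.0027, -0.0024 and -0.0050 across genes. These values cannot show whether libraries with the same number shared a culture or batch. With the number as a replicate block, 68 of 69 member results kept their call, SNHG15 at day 2 had an adjusted p of 0.0555, and 14 members were higher and 7 lower at day 2. Depth limits the rare members most, above all in the day 5 libraries.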
